A study of Mus musculus with 3 samples.

Results

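The mitochondrial ribosomal protein genes are the nuclear genes that encode the proteins of the mitochondrial ribosome (mitoribosome). They were taken as the rows of the expression table whose gene symbol is Mrpl or Mrps, a number and at most 1 letter from a to c, which gave 78 of the 55573 genes listed. Of these, 49 carry the symbol of the large subunit (Mrpl) and 29 that of the small subunit (Mrps). All 78 are annotated as protein coding, and they lie on 17 chromosomes, with 11 of them on chromosome 11.

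The mitoribosome translates the few mRNAs encoded in mitochondrial DNA, which specify subunits of the respiratory chain and of the ATP synthase. Its small subunit holds the decoding site, its large subunit holds the peptidyl transferase center, and its products leave through an exit tunnel next to the inner membrane. Its rRNAs come from mitochondrial DNA, whereas its proteins are made in the cytosol and imported. Some of these proteins have a counterpart in bacterial ribosomes, and others are found in mitochondria only.

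The levels were measured by UMI-RNAseq, in which a random tag (unique molecular identifier, UMI) marks each molecule so that PCR copies can be removed. The samples were 3 libraries of NIH3T3, a widely used mouse fibroblast line, cultured in DMEM with serum and antibiotics and without any treatment or genetic change. All 3 libraries share this 1 condition, which leaves no groups to compare, and in the study they gave transcript levels for genes that were also imaged by FISH. It is not stated in the sources used here if each library had a culture of its own, so the SD and p-values given here measure only the spread between these libraries, which may be technical.

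The tables hold FPKM, in which the fragments counted for a gene are divided by its length in kilobases and by the library total, scaled to 1000000 fragments. The library totals recovered from the FPKM values ranged from 13959723 to 14423209 fragments, and each of the 77 members above 0 rested on 33 to 1100 fragments per library. The sample labels name NIH3T3 as the cell line, but their extraction text speaks of retinas. Of 10 fibroblast markers, 9 had a mean of at least 1 FPKM and their levels summed to 9662 to 9785 FPKM, with Postn at 0.494 ± 0.0637 FPKM (SD, n = 3). Of 10 retina markers, 0 reached 1 FPKM, their sum was 0.548 to 1.00 FPKM, and Nrl was among those listed at 0 in every library.

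The members were expressed at a moderate level. They summed to 1980 FPKM in library 1, 1980 FPKM in library 2 and 1952 FPKM in library 3, which is 0.283% to 0.289% of all FPKM in a library. Of the 78 genes, 77 had a mean of at least 1 FPKM and 66 of at least 10 FPKM. Among the 12905 genes with a mean of at least 1 FPKM (expressed genes) the median level was 17.5 FPKM, and 48 members lay above it.

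The median level of the large subunit genes was 25.4 FPKM in library 1, 24.4 FPKM in library 2 and 23.7 FPKM in library 3 (24.5 ± 0.829, SD, n = 3). The median of the small subunit genes was 19.9, 20.96 and 20.2 FPKM in the same order (20.3 ± 0.549). The large subunit median was thus the higher one in each library, and the medians of the libraries did not overlap between the subunits. The ratio of the medians was 1.28, 1.16 and 1.18, or 0.27 ± 0.07 on the log2 scale. Flipping the sign of the log2 ratio in every combination of the 3 libraries (an exact permutation test, two-sided) gave p = 0.25, which is the smallest value that 3 libraries allow (0.25 after Benjamini-Hochberg adjustment over 5 such tests). Over the processing alternatives the log2 ratio stayed between 0.10 and 0.31. The lowest, 0.10 ± 0.11, came with mitoribosomal proteins of other symbols added and was no larger than its spread between libraries.

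**Figure D1:**
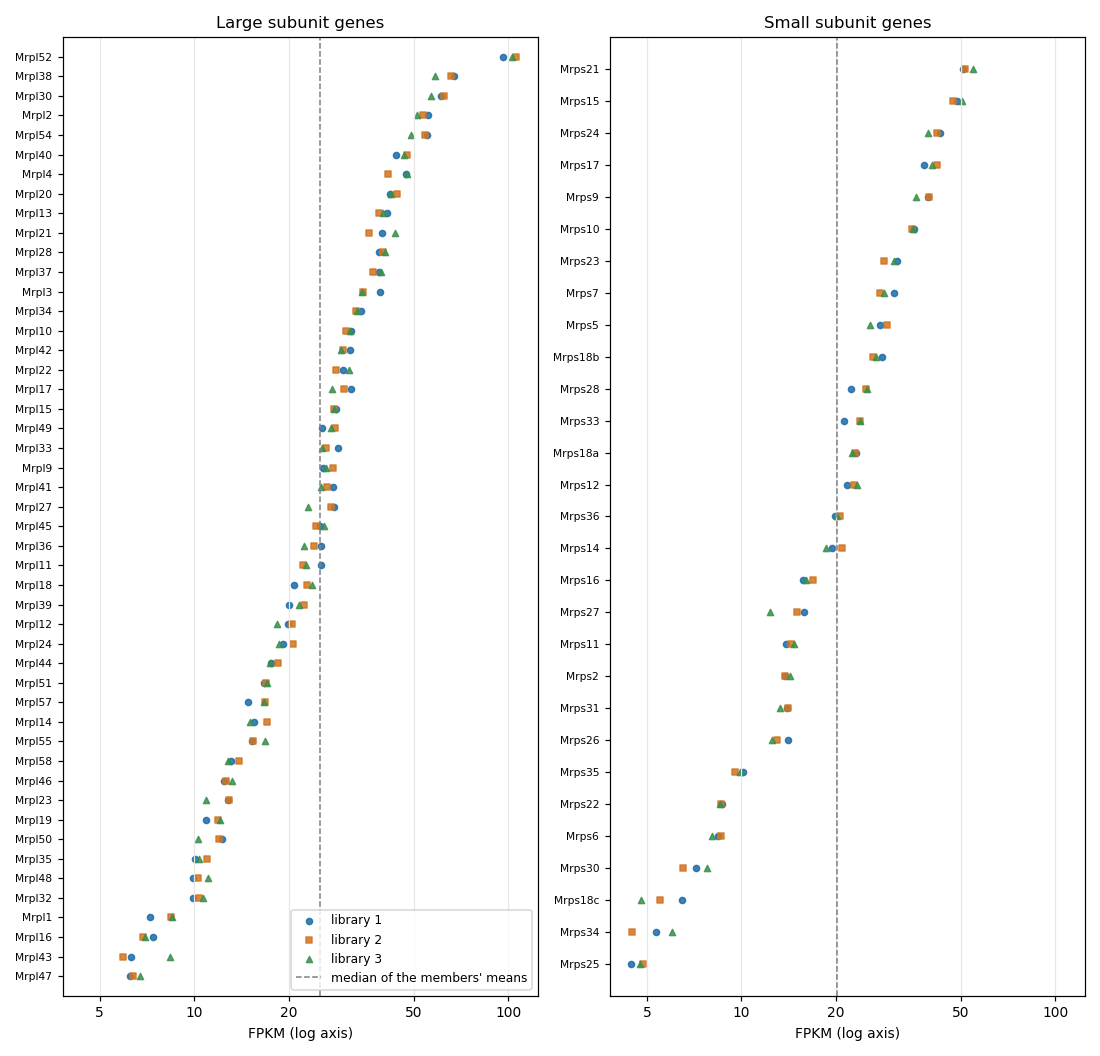
FPKM (log axis) of each member in the 3 libraries, for the large subunit (left) and the small subunit (right), in order of the mean, with the median of the members' means as a dashed line. Mrpl52 stands apart at the top of the large subunit, most neighbours in the order share part of their range, and Mrpl53, which is listed at 0, is not drawn.

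Within the large subunit, Mrpl52 had the highest level. It encodes a protein specific to mitochondria and lies at chr14:54426909-54429756 (GRCm38, + strand). Its level was 96.4 FPKM in library 1, 106 FPKM in library 2 and 103 FPKM in library 3 (102 ± 4.93, SD, n = 3), rank 1189 among the genes with at least 1 FPKM. All 3 of its values were above every value of any other member.

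Mrpl38, whose product sits in the central protuberance, followed with 67.3, 65.6 and 58.5 FPKM (63.8 ± 4.66). Mrpl30, which encodes the counterpart of bacterial L30, had 61.3, 62.4 and 56.9 FPKM (60.2 ± 2.88). The ranges of these genes overlapped, so their order was not separated from the spread between libraries. Mrpl2, whose bacterial counterpart L2 lies near the peptidyl transferase center, had 55.4, 53.4 and 51.2 FPKM (53.3 ± 2.11), and the mitochondria-specific Mrpl54 had 55.1, 54.5 and 49.2 FPKM (52.9 ± 3.26). Library 3 held the lowest value of all 4 genes that followed Mrpl52. The member at the median of the large subunit was Mrpl45, a protein of the tunnel exit, with 25.1, 24.4 and 25.8 FPKM (25.1 ± 0.708).

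At the lower end of the large subunit, Mrpl1, which encodes the protein of the L1 stalk, had 7.24, 8.46 and 8.47 FPKM (8.06 ± 0.710). Mrpl16, the counterpart of bacterial L16, had 7.40, 6.88 and 6.98 FPKM (7.09 ± 0.273). These genes overlap no exon of another annotated gene, which sets them apart from those below them. Mrpl43 had 6.30, 5.91 and 8.40 FPKM (6.87 ± 1.34), and Mrpl47, a protein at the tunnel exit, had 6.25, 6.38 and 6.73 FPKM (6.45 ± 0.248). Mrpl53 was listed at 0 in all 3 libraries. The limit that a count of 0 allows (3 fragments) corresponds to 0.296 to 0.306 FPKM per library for this gene and covers counting error only. Of the 48 pairs of neighbours in the order of the large subunit, 11 had ranges over the libraries that did not overlap and 37 had ranges that did.

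In the small subunit the highest member was Mrps21, the counterpart of bacterial S21, at chr3:95862634-95871519 (GRCm38, − strand). Its level was 50.7, 51.5 and 54.6 FPKM in libraries 1, 2 and 3 (52.3 ± 2.08, SD, n = 3). Mrps15, the counterpart of bacterial S15, had 48.6, 47.1 and 50.4 FPKM (48.7 ± 1.66). Their ranges did not overlap, but the gap between them was narrow. Mrps24, which encodes the counterpart of bacterial S3 at the mRNA entry, had 43.0, 41.9 and 39.1 FPKM (41.4 ± 1.99). Mrps17, the counterpart of S17, had 38.1, 42.0 and 40.5 FPKM (40.2 ± 1.97), and Mrps9, the counterpart of S9, had 39.3, 39.4 and 35.8 FPKM (38.2 ± 2.02). The last 3 of these overlapped in range. All 5 have a bacterial counterpart.

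The gene at the median of the small subunit was Mrps36, with 19.9, 20.6 and 20.2 FPKM (20.2 ± 0.331). In spite of its symbol, its product is now known as a subunit of the 2-oxoglutarate dehydrogenase complex. The lowest members were Mrps6 with 8.43, 8.63 and 8.03 FPKM (8.36 ± 0.307), Mrps30 with 7.16, 6.52 and 7.75 FPKM (7.15 ± 0.618) and Mrps18c with 6.47, 5.50 and 4.79 FPKM (5.59 ± 0.847). Mrps6 and Mrps18c encode counterparts of bacterial S6 and S18, and Mrps30 was named after the small subunit, although its product is part of the large one. Below them, Mrps34 had 5.34, 4.47 and 6.004 FPKM (5.27 ± 0.769) and Mrps25 had 4.46, 4.87 and 4.76 FPKM (4.70 ± 0.213). The ranges of Mrps18c, Mrps34 and Mrps25 overlapped, so their order was within the spread between libraries. Over the small subunit, 11 of 28 neighbouring pairs did not overlap.

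The spread of the levels was described by the SD over genes of log2(FPKM + 1), taken in each library. It was 1.102, 1.08 and 1.07 among the large subunit genes (1.09 ± 0.02) and 0.91, 0.93 and 0.92 among the small subunit genes (0.92 ± 0.01). Both were narrower than the SD of 1.92 over all genes with at least 1 FPKM. The order of the subunits depended on Mrpl53, the only member under 1 FPKM. Without it the SD of the large subunit genes was 0.87 ± 0.02, below that of the small subunit genes. The ratio of the upper to the lower quartile was 2.69 ± 0.243 in the large and 2.24 ± 0.0547 in the small subunit. With the mitoribosomal proteins outside the name rule added, this order turned, at 2.72 ± 0.171 and 2.83 ± 0.0694. From Mrpl52 to Mrpl47, the lowest gene above 0, the large subunit spanned 15.8-fold, and from Mrps21 to Mrps25 the small subunit spanned 11.1-fold. Between 10 and 50 FPKM lay 39 large and 21 small subunit genes, whereas 5 large subunit genes and 1 small subunit gene, Mrps21, exceeded 50 FPKM.

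The genes were next grouped by whether the protein has a bacterial counterpart. In the small subunit, the 16 genes with a counterpart had a median of 24.9, 26.3 and 25.4 FPKM in libraries 1, 2 and 3 (25.6 ± 0.719), and the 10 mitochondria-specific genes had 14.0, 13.5 and 12.4 FPKM (13.3 ± 0.820). The first group was higher in each library, by 1.78-, 1.95- and 2.04-fold (log2 0.94 ± 0.10). The exact sign-flip permutation test gave p = 0.25 (0.25 after adjustment over 5 tests), the smallest value possible with 3 libraries, and the alternatives gave log2 ratios from 0.58 to 1.00. Above the median of all expressed genes lay 11 of the 16 genes with a counterpart and 3 of the 10 mitochondria-specific ones. The latter 3 were Mrps23 with 31.2, 28.5 and 30.6 FPKM, Mrps18b with 28.0, 26.2 and 26.8 FPKM, and Mrps33 with 21.2, 23.8 and 23.8 FPKM. The mitochondria-specific genes also had the longer transcripts (median of the mean isoform length 1631 against 1077.5 bases), and 3 of them against 0 overlapped other genes over at least 25% of their exonic bases. Without division by length the log2 ratio was 0.58 ± 0.07, and without the overlapped members, a setting added after the data were seen, it was 0.92 ± 0.10. Small subunit proteins outside the name rule were in neither group, and the ratio was not recomputed with them. These genes, Dap3, Ptcd3, Chchd1 and Aurkaip1, had means of 66.1, 52.2, 44.7 and 42.6 FPKM, above both medians. Counted as mitochondria-specific, they would narrow the difference, so it holds for the genes with an Mrps symbol only.

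In the large subunit, the 30 genes with a bacterial counterpart had a median of 26.8, 26.8 and 24.6 FPKM (26.1 ± 1.29), and the 19 mitochondria-specific genes had 19.98, 22.4 and 21.6 FPKM (21.3 ± 1.24). The log2 ratio was 0.29 ± 0.12, with p = 0.25 in the exact permutation test (0.25 after adjustment over 5 tests). The sign did not hold under other settings: without division by length the log2 ratio was -0.21, and with the mean in place of the median it was -0.10. Mrpl52, the highest member of all, and Mrpl53, the one listed at 0, both fall among the mitochondria-specific genes. Above the median of all expressed genes lay 21 of the 30 and 11 of the 19 genes.

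**Figure D2:**
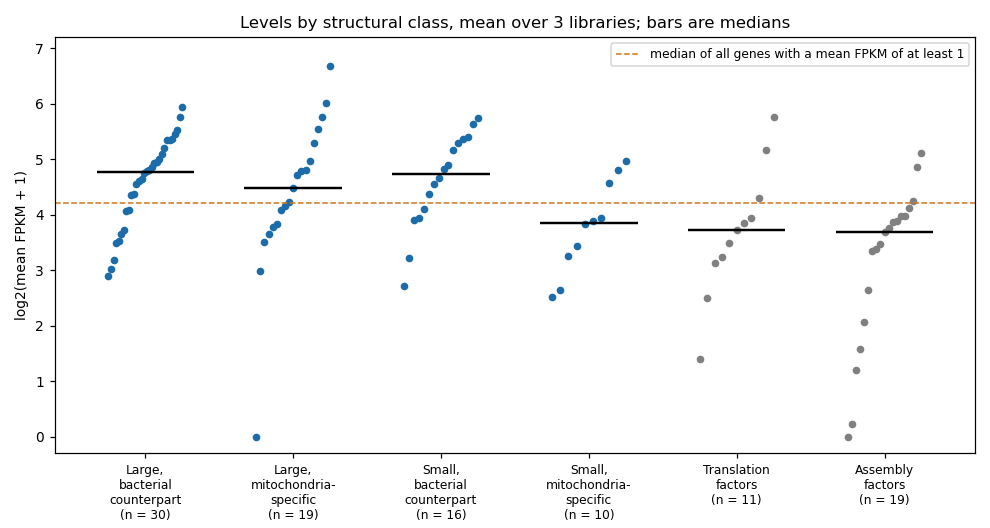
Log2(mean FPKM + 1) over 3 libraries of each gene, by structural class and for the lists of mitochondrial translation and assembly factors, with a bar at each group's median and the median of all expressed genes as a dashed line. The small subunit genes classed as mitochondria-specific sit mostly below the dashed line (3 of 10 above), whereas 11 of 16 with a counterpart sit above it. Only genes with an Mrps symbol are drawn for the small subunit, so Dap3, Ptcd3, Chchd1 and Aurkaip1 are not shown.

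Functional sites of the large subunit did not share 1 level. The products of Mrpl10, Mrpl11 and Mrpl12 belong to the stalk, which recruits translation factors, and only these genes were taken for it here. Mrpl10 had 31.6, 30.3 and 31.4 FPKM, Mrpl11 had 25.4, 22.2 and 22.8 FPKM, and Mrpl12 had 19.96, 20.5 and 18.4 FPKM. Their ranges did not overlap, and the highest mean was 1.59-fold the lowest. Around the tunnel exit, where the nascent chain meets the membrane, the means of the 7 genes ran from 29.7 ± 1.41 FPKM for Mrpl22 and 25.1 ± 0.708 FPKM for Mrpl45 down to 12.2 ± 1.15 FPKM for Mrpl23 and 6.45 ± 0.248 FPKM for Mrpl47. Between them lay Mrpl39 at 21.3 ± 1.24, Mrpl24 at 19.5 ± 1.02 and Mrpl44 at 17.8 ± 0.638 FPKM. Mrpl45 encodes the protein that anchors the ribosome to the inner membrane.

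The central protuberance, which faces the small subunit, fell into levels far apart. Mrpl38 at 63.8 ± 4.66 FPKM and Mrpl40 at 46.0 ± 1.80 FPKM were high, Mrpl18 was at 22.4 ± 1.53 FPKM, and Mrpl58, Mrpl46 and Mrpl48 were at 13.2 ± 0.548, 12.7 ± 0.370 and 10.4 ± 0.594 FPKM. The highest of these means was 6.14-fold the lowest. Mrpl58 encodes a peptidyl-tRNA hydrolase that became a ribosomal protein.

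Mammals have 3 genes related to bacterial S18, whose products take different places in the mitoribosome. Mrps18b had 28.0, 26.2 and 26.8 FPKM, and its product is in the small subunit. In spite of its relation to S18, it was counted above among the mitochondria-specific genes. Mrps18a, whose product is part of the large subunit, had 23.1, 23.1 and 22.6 FPKM. Mrps18c, whose product holds the place of bacterial S18, had 6.47, 5.50 and 4.79 FPKM. Mrps18c was the lowest of the 3 in each library, and it rested on 33 to 45 fragments per library, the fewest of any member above 0. Of its exonic bases, 23.2% are shared with other annotated exons on the same strand, so its value is uncertain. Counting Mrps18a and Mrps30 with the large subunit and leaving out Mrps36 gave a small subunit median of 21.04 FPKM. The large to small log2 ratio was then 0.20 ± 0.10.

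Several mitoribosomal proteins have symbols outside the rule used here. Dap3, a GTP-binding protein of the small subunit, had 67.3, 63.7 and 67.2 FPKM (66.1 ± 2.01), above all small subunit genes of the Mrps series. Ptcd3, Chchd1 and Aurkaip1, also of the small subunit, had means of 52.2 ± 0.768, 44.7 ± 1.64 and 42.6 ± 0.443 FPKM. Gadd45gip1, of the large subunit, had 0.695, 0.919 and 0.448 FPKM (0.688 ± 0.235), and 42.0% of its exonic bases are shared with other annotated exons, so its value is uncertain. With these 5 genes added, the small subunit median was 22.7 FPKM, and the large to small log2 ratio was 0.10 ± 0.11.

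The translation and assembly factors that work with the mitoribosome had lower medians than its proteins. The 2 mitochondrial rRNAs, mt-Rnr1 and mt-Rnr2, had 180 ± 5.70 and 211 ± 4.35 FPKM. How far the library preparation kept rRNA was not tested, so their levels are no measure of the rRNA in the cells. The 11 mitochondrial translation factors had a median of 12.2 ± 0.211 FPKM, from Tufm, the elongation factor that delivers tRNAs, at 53.5 ± 1.92 FPKM to Mtrf1, a release factor, at 1.65 ± 0.168 FPKM. Of 19 assembly factors, 17 had at least 1 FPKM. Their median was 11.8 ± 0.545 FPKM, with the RNA helicase Dhx30 highest at 33.4 ± 1.30 FPKM. Gtpbp10 had 0.384, 0 and 0.129 FPKM, and Rbfa was listed at 0, with 43.9% of its exonic bases inside a lincRNA on the opposite strand that was listed at 0 as well.

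The cytosolic ribosomal protein genes, which build the ribosomes of the cytosol, were far more abundant. Their median over 81 genes was 609, 661 and 635 FPKM, and the median of the 78 mitochondrial genes was 22.0, 22.9 and 22.9 FPKM. The mitochondrial genes were 28.1 ± 0.643-fold lower (log2 -4.81 ± 0.03), with alternatives from -4.91 to -4.15. The 83 nuclear genes of oxidative phosphorylation, the pathway that uses the mitoribosome's products, had a median of 50.3, 53.4 and 50.3 FPKM. The mitoribosomal genes were 2.27 ± 0.0674-fold lower (log2 -1.18 ± 0.04), with alternatives from -1.74 to -0.64. Both differences had the same sign in all 3 libraries, and each exact permutation test gave p = 0.25, the smallest value possible (0.25 after adjustment over 5 tests). The levels of the mitoribosomal genes were the least scattered of the 3 groups: the SD of log2(FPKM + 1) over genes was 1.03 ± 0.01 for the 78 members, 2.49 ± 0.01 for the cytosolic and 2.12 ± 0.02 for the oxidative phosphorylation genes, which include copies such as Rpl10l and Cox8b that were listed at 0.

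Low values among the members went with overlap of other genes. By the annotation (GENCODE M21), 33 of the 78 members (42.3%) share exonic bases with another gene on either strand, against 37.1% of the 10813 protein-coding genes with at least 1 FPKM. At least 25% of the exonic bases are shared in 7 members (8.97%), against 4.37% of those genes. The median level of the 7 was 6.87 ± 1.34 FPKM and that of the other 71 was 24.3 ± 0.723 FPKM. The limit of 25% was chosen after the values were seen, so this is a description without a test.

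Mrpl53, at chr6:83109040-83109939, shares 88.0% of its exonic bases, 695 of them with the same-strand gene Gm42688, which had 0.0573, 0.0197 and 0.0385 FPKM. Mrps34, at chr17:24895116-24897502, shares 77.8%, with Mapk8ip3 on the opposite strand at 58.7, 57.8 and 59.0 FPKM and with Nme3 on the same strand, which was listed at 0. Mrps25, at chr6:92169525-92184033, shares 69.8%, with Nr2c2 on the opposite strand at 16.9, 18.7 and 18.4 FPKM. Thus the 3 members with the largest overlap were the lowest member of the large subunit and the lowest 2 of the small subunit. The others were Mrpl19 (36.0%, with Gcfc2), Mrpl43 (33.4%, with Twnk, the mitochondrial DNA helicase), Mrps18b (30.5%, with an antisense gene) and Mrpl24 (26.3%, with Rrnad1), all shared with the opposite strand. Mrps18b, at 27.03 ± 0.925 FPKM, lay above the median of its subunit, so a large overlap did not always go with a low value. Whether the counting used strand, and how it treated reads in shared exons, is not given in the sources used here. The part of overlap in these levels was not tested, and the values of these 7 genes are uncertain for that reason. Mrpl47 and Mrps27 (24.2% each) and Mrps18c (23.2%) lay just under the limit of 25%, and their values are uncertain as well.

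**Figure D3:**
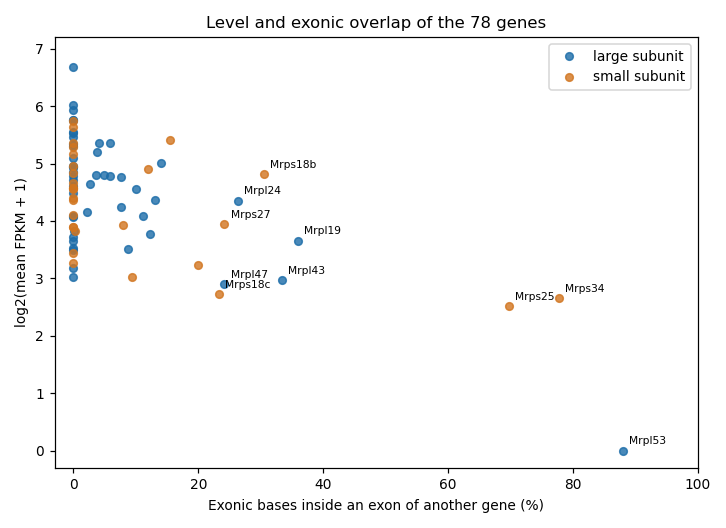
Log2(mean FPKM + 1) over 3 libraries of each of the 78 genes against the percentage of its exonic bases that lie inside an exon of another annotated gene. Mrpl53 (88.0%), Mrps34 (77.8%) and Mrps25 (69.8%) lie at the lower right, and Mrps18b (30.5%) lies above the other members with a large overlap.

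Among the members, Mrpl46 of the central protuberance and Mrps11 of the small subunit are neighbours that start head to head on chromosome 7 and share 173 exonic bases. Mrpl46 had 12.5, 12.6 and 13.2 FPKM and Mrps11 had 13.9, 14.3 and 14.7 FPKM. The ranges of the pair were close and did not overlap.

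Over the 77 members above 0, the level was lower in longer transcripts (Pearson's r = -0.49, Spearman's rho = -0.46 between log2 of the mean FPKM and log2 of the mean isoform length). FPKM contains this length in its denominator, and fragments scaled to the library total before that division were higher in longer transcripts (r = 0.29, rho = 0.25). The level was lower with a higher percentage of overlapped bases (r = -0.49, rho = -0.37) and with a higher percentage of 75-nt words shared with other genes (r = -0.47, rho = -0.29). Words were matched on either strand, so genes that overlap a member's exons also share its words, and these relations are not separate. Mrps25, for example, has 69.8% of its bases overlapped and 67.3% of its words shared. The level was higher with more annotated isoforms (r = 0.32, rho = 0.36). These are descriptions over genes that share the same libraries and are not independent replicates. Mrpl22 shares 17.3% of its words with any other gene, Mrpl27 shares 15.1% and Mrps36 shares 11.3%. The single genes that share the most words with them are Gm6997, Gm6304 and Mrps36-ps2, in the same order. The levels of Mrpl22, Mrpl27 and Mrps36 thus carry the doubt of reads that match more than 1 gene. They are not alone in this, as 18 members share at least 10% of their words with other genes. Mrpl23 (10.1%) and Mrps33 (10.3%) do so without any exonic overlap. Among the pseudogenes named after a member, Mrpl48-ps had 5.67, 5.29 and 3.85 FPKM and Mrpl23-ps1 had 0.478, 1.24 and 1.45 FPKM.

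The 3 libraries gave nearly the same levels. Over the 77 members, the coefficient of variation (CV) between libraries had a median of 4.75%, against 5.35% from counting error alone, and it was below the counting error in 48 members and above it in 29. A CV taken from only 3 values falls below its true value more often than above it. The lower median and the larger count below therefore do not show a spread under the counting error. The highest value was 1.01 to 1.42 times the lowest, and under 1.2 times in 71 members. A chi-square test of each gene's fragments against the library totals, with Benjamini-Hochberg adjustment over 15142 genes, called 0 of the 77 members, where 1.84% of all genes tested were called. The lowest adjusted p among members was 0.337, for Mrpl38. At an unadjusted p under 0.05 there were 7 members, a share equal to the 9.09% of all genes tested, namely Mrpl38, Mrpl3, Mrpl17, Mrpl21, Mrps27, Mrpl4 and Mrpl43.

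Among the members with at least 10 FPKM, the largest ratio between libraries was that of Mrps27, which encodes an RNA-binding protein of the small subunit, with 15.9, 15.1 and 12.4 FPKM (1.28-fold). Mrpl21, the counterpart of bacterial L21, followed with 39.6, 36.0 and 43.7 FPKM (1.21-fold), and Mrpl27, whose bacterial counterpart reaches to the peptidyl transferase center, had 28.0, 27.3 and 23.1 FPKM (1.21-fold). Library 3 was the lowest for Mrps27 and Mrpl27 but the highest for Mrpl21. Mrpl50 had 12.3, 12.0 and 10.3 FPKM (1.19-fold) and Mrpl23 had 12.8, 12.9 and 10.9 FPKM (1.18-fold). Below 10 FPKM, Mrpl43 had the largest CV of all members, 19.5% against a counting error of 10.3%.

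**Figure D4:**
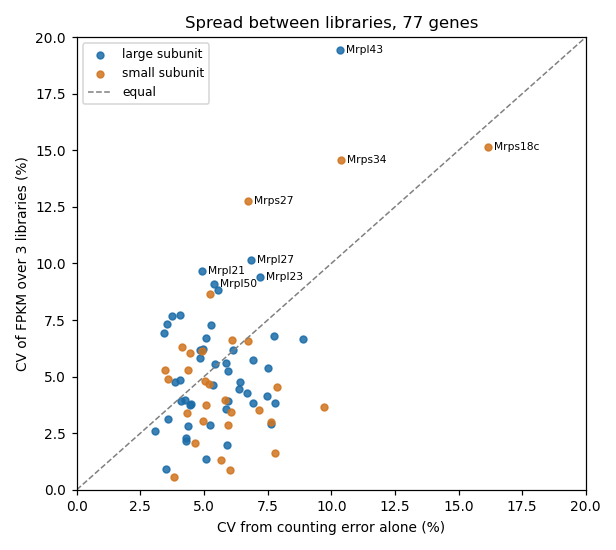
CV of FPKM over the 3 libraries against the CV expected from counting error alone, for the 77 members above 0, with the line of equality dashed. More members lie below the line (48) than above it (29), and Mrpl43 is the highest point at 19.5%. A CV from 3 values falls below its true value more often than above it, so the split does not show a spread under counting error.

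Promoter sequence was examined because nuclear genes for mitochondrial proteins are known to be bound near their start by NRF1, by ETS family factors such as GABPA and by YY1. RefSeq promoter windows of 300 bases (250 before and 50 after an annotated start, GRCm38.p6) were matched by symbol for 69 of the 78 members. Mrpl4, Mrpl13, Mrpl15, Mrpl19, Mrpl38, Mrpl54, Mrps28, Mrps34 and Mrps35 had no entry. Exact matches were sought on both strands for the ETS motif CCGGAAG, the NRF1 motif (GCGCA and GCGC with 1 base of any kind between them), the YY1 motif AAGATGGCG, the TATA box TATAAA and the CCAAT box CCAAT. No 2 of these motifs contain each other.

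The 250 bases before the start are shown for 3 members whose window holds no annotated exon: the highest member, the member at the median of the large subunit, and a low member of the small subunit. Motif matches are in capitals. They lie at chr14:54426659-54426908 (+ strand) for Mrpl52, with 1 ETS match on the other strand, at chr11:97315466-97315715 (+ strand) for Mrpl45, with 2 NRF1 matches, and at chr9:98601680-98601929 (− strand) for Mrps22, a mitochondria-specific gene at 8.59 ± 0.0747 FPKM, with 1 ETS match.
Mrpl52: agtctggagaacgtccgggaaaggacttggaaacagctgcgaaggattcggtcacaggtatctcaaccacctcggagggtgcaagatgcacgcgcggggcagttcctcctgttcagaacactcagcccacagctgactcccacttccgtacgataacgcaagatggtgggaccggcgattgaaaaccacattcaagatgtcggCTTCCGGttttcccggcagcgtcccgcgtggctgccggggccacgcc
Mrpl45: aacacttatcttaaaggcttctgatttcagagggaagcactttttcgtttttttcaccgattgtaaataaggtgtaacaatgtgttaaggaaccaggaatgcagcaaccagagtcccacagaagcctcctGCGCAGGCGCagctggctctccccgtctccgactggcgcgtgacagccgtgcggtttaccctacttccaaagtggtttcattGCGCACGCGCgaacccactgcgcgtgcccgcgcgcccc
Mrps22: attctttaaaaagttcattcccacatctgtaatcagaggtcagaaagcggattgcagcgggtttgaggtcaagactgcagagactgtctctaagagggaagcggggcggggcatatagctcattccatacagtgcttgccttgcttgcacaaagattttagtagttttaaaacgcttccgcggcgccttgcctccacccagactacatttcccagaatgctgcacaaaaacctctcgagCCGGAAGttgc

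Of the 69 members, 41 held at least 1 match to the ETS, NRF1 or YY1 motif and 28 held none. The ETS motif was in 26 members (37.7%), as against 21.6% of 8642 protein-coding genes with at least 1 FPKM and 9.93% of all 27025 genes with a window. The NRF1 motif was in 13 members (18.8%, against 12.6% and 5.19%) and the YY1 motif in 8 (11.6%, against 3.99% and 1.64%). The TATA box was in 5 members (7.25%, against 8.22% and 15.7%) and the CCAAT box in 27 (39.1%, against 44.1% and 41.1%). The shares of the first 3 motifs were higher among the members than among the expressed genes, and those of the last 2 were lower, which is given without a test. The windows of the members had a median GC content of 58.7%, against 61.0% in the expressed genes.

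By subunit, the ETS motif was in 15 of 43 large and 11 of 26 small subunit genes, the NRF1 motif in 10 and 3, and the YY1 motif in 4 and 4. The median was 22.7 FPKM with and 21.3 FPKM without the ETS motif, 21.3 and 22.7 FPKM for the NRF1 motif, and 23.4 and 22.4 FPKM for the YY1 motif. It was 23.5 and 19.5 FPKM for the CCAAT box, and 12.7 FPKM with the TATA box, which rests on 5 members, against 22.7 FPKM without it. Mrpl52, at 102 FPKM, and Mrpl53, listed at 0, both hold an ETS match. A match says only that these letters occur in the window, and binding was not measured.

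**Figure D5:**
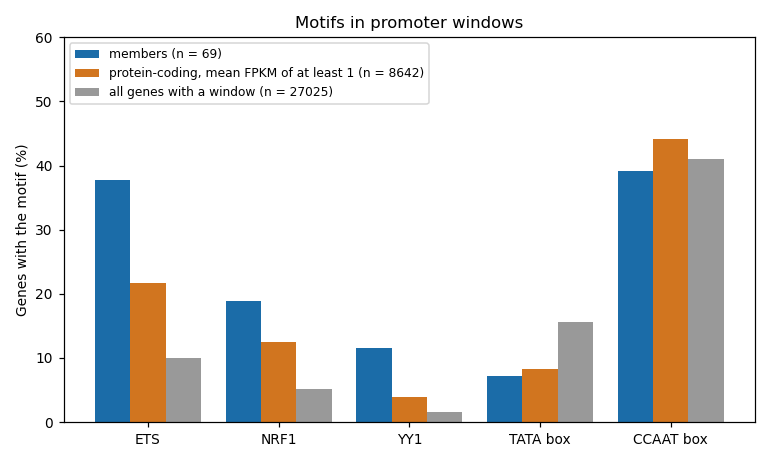
Percentage of genes with at least 1 exact match to each motif in a 300-base promoter window, for the 69 mitochondrial ribosomal protein genes (members), 8642 expressed protein-coding genes and all 27025 genes with a window. The members' bar is the highest for the ETS (37.7%), NRF1 (18.8%) and YY1 (11.6%) motifs and the lowest for the TATA and CCAAT boxes.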

How the data were processed

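UMI-RNAseq of 3 libraries of untreated NIH3T3 cells was analyzed. According to the methods, reads with a UMI (UMI-tools 1.0.0) were mapped with HISAT2 (2.0.4 in the submitters' processing notes), duplicates of a UMI at the same place were removed, and reads were counted per gene with HTSeq 0.6.1. The processing notes also name DESeq 1.10.1. The authors divided these counts by gene length and library total and deposited the resulting FPKM per library, without pooling. The genome build, annotation and strand setting of the counting are not given in the sources used here. Both deposited tables held identical values, and 0 columns of values were left unused.

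Fragments were recovered as FPKM times the mean isoform length in GENCODE M21 (GRCm38, 55480 of 55573 IDs matched) times the library total. They were whole within 0.01 in all libraries for 25969 of 26173 genes (99.2%) and for 78 of 78 members. FPKM were kept as the measure of level, and members at 0 stayed in every median. Group medians were compared within each library by an exact permutation test (sign flips of the log2 ratio, two-sided). Differences between libraries were tested on fragments by chi-square for genes with an expected count of at least 5 in each library. In libraries simulated with counting error only, the chi-square test over 15124 unchanged genes called 11 of them, 78 of 100 genes changed 1.5-fold and 95 of 100 changed 2-fold. The changed genes were taken from the better counted ones and changed in a single library. Of the unchanged genes 5.025% had an unadjusted p under 0.05, against 9.09% of the real genes tested. The simulation thus lacks part of the spread in the data, and its rates need not hold for them. Python 3.11.15, numpy 2.4.6, pandas 2.3.3, scipy 1.17.1 and matplotlib 3.10.9 were used.

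The members and gene lists were chosen with earlier results of these data known. Named were, per subunit, the 5 highest and 5 lowest members and the one at the median, all members of the stalk, tunnel exit, central protuberance and S18 lists, the 5 with the largest ratio between libraries among those of at least 10 FPKM, and the extremes of the other lists. Mrpl3, Mrpl4, Mrpl17, Mrpl19, Mrps11, Mrps22, Mrps23, Mrps33, Ptcd3, Chchd1, Aurkaip1, Gtpbp10, pseudogenes and overlapping genes were named in addition after their values were seen. The motifs, the comparison with expressed genes and the overlap limit were also chosen after values were seen. Alternatives were leaving out each library, TPM scaling, other lengths, pseudocounts, filters, summaries and member lists, and median-of-ratios scaling. RefSeq promoter windows (GRCm38.p6) were searched by letters only.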

Additional observations from a re-analysis of the deposited data

How the results depend on the processing

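Of 125 recomputed values of the comparisons, 93 moved by less than the spread between libraries or kept their call, 30 moved further and 2 changed sign. Many of the 93 could not have come out otherwise. Leaving out a library cannot move a mean over these libraries by its SD, and TPM scaling cannot change a ratio taken within a library. The count of 93 is therefore no measure of how stable the comparisons are. The 2 that changed sign were the large subunit's log2 ratio of genes with to genes without a bacterial counterpart, at -0.21 without length division and -0.10 with means. The other log2 ratios kept their sign (45 of 47), but leaving out a library or TPM scaling could not have changed a sign that all libraries shared.

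The median levels of the large and small subunit were 35.5 and 29.5 with TPM scaling, 13.4 and 11.04 FPKM with the longest isoform, 27.2 and 22.0 FPKM as means, and 25.9 and 21.3 FPKM without the members overlapped over at least 25% of their exonic bases (added after seeing the data). The small subunit's alone moved to 22.0 fragments per 1000000 without length division, to 21.04 FPKM with Mrps18a and Mrps30 moved and Mrps36 left out, and to 22.7 FPKM with the proteins outside the name rule.

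The SD of log2(FPKM + 1) in the large and small subunit was 1.14 and 0.94 with TPM scaling, 1.01 and 0.90 without length division, 1.199 and 0.98 with the proteins outside the name rule, and 0.85 and 0.83 without the overlapped members. A pseudocount of 0.1 gave 1.44 and 0.98, and none, over members above 0, gave 0.92 and 0.99. The large subunit's was 0.87 among members of at least 1 FPKM, and the small subunit's was 0.94 with Mrps18a, Mrps30 and Mrps36 reassigned. The quartile ratio was 2.36 and 2.18 without length division, 2.72 and 2.83 with the proteins outside the rule, which turned the order of the subunits, and 2.35 in the large subunit without the overlapped members.

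Leaving out 1 library gave 3 to 8 members at an unadjusted p under 0.05, and 0 adjusted calls each time. Without library 1, 2 or 3 the unadjusted share was 10.4%, 10.4% and 3.90% of the members (8, 8 and 3), against 6.77%, 8.70% and 8.62% of all genes tested, of which 0.709%, 1.22% and 1.25% were called after adjustment. Of 468 recomputed levels of single members, 247 stayed within 1 SD. Many of these came from leaving out 1 library, which cannot move a mean of 3 values by 1 SD. The count is therefore no measure of how stable the levels are. Members with a named pseudogene (3, by symbol followed by a sign) changed no count. With 3 libraries no p under 0.25 is possible. No paired analysis was possible because all libraries share 1 condition, so there were no groups of samples to pair. The ratios between gene groups were taken within each library. The cause of the shifts was not tested, apart from what each setting changes by construction. Groups of 3 are too small for a check of single libraries that stand apart.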
